A study of Mus musculus with 8 samples.

Results

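The genes of the mitochondrial ribosome were followed in the mouse retina during exposure to 75% oxygen. The set holds the genes whose symbol begins with Mrpl (ribosomal protein, large subunit) or Mrps (ribosomal protein, small subunit) followed by a digit, taken from probe sets that are annotated with a single symbol. A probe set is a group of short probes on the array that read 1 transcript. There were 76 such genes among the 18193 genes measured, 47 named Mrpl and 29 named Mrps, read by 156 of 45037 probe sets. The names are historical, and *Mrps18a* and *Mrps30* belong to the large subunit. Genes entered the set by symbol alone, and a place in the ribosome was not checked for each of them. Retinas came from adult C57BL/6J mice of 80 to 120 days, raised in 12 h of dim light (5 lux) and 12 h of darkness, and all groups shared this strain and light. The 4 groups were control (day 0, no added oxygen) and 3, 7 and 14 days in oxygen, with 2 Affymetrix mouse arrays each, written here with the day and replicate number of their label (d3r2 is day 3, replicate 2). According to the methods, 12 retinas from 3 males and 3 females were pooled at each time. Separate pools for the 2 arrays are not described, and the p-values may therefore reflect technical variation only. The number of arrays limits the precision.

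Mitochondria hold ribosomes of their own, which are distinct from those of the cytosol. They translate the few proteins that mitochondrial DNA encodes, all of them parts of the respiratory chain and ATP synthase, while their own protein components are encoded in the nucleus, translated in the cytosol and imported. Part of these proteins have counterparts in the bacterial ribosome and the rest are found in mitochondria alone. Photoreceptors, the most abundant cells of the retina, are rich in mitochondria and use much of the oxygen that the retina receives.

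The deposited log2 values are centred, so that each probe set has a median of 0 over the 8 arrays. They give differences between arrays and no level, genes cannot be ranked by abundance, and the presence of retinal markers could only be followed relative to the other arrays. Over all 18193 genes, the array medians ran from -0.03 to 0.06. Arrays d3r2 and d14r2 stood apart from the rest. The 3' minus 5' value of *Gapdh*, a measure of RNA quality, was 1.19 on d3r2 and 1.43 on d14r2, where the other 6 gave -0.32 to 0.12, and the median of 6 microglia markers was 1.16 and 1.03 where the others gave -0.20 to 0.13. This goes against 2 of the labels, since the quality measures listed in the study have a raised *Gapdh* ratio for both arrays of the last time in oxygen and for neither array of the first. Here d14r1 had a low value and d3r2 a high one. Arrays are named by their labels throughout. The median difference of the set, the order of its arrays and the genes that passed are also given without d3r2 and d14r1. For most single genes, for classes of genes and for the other lists, no values without this pair are given. Markers of neighbouring tissue varied too. The median of all 5 lens markers ranged from -4.44 on d3r1 to 3.67 on d7r2.

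On most arrays the genes of the mitochondrial ribosome lay to one side of 0. Their median was -0.01 and -0.14 on the control arrays, 0.16 and 0.13 at day 3, -0.08 and -0.28 at day 7, then 0.05 and 0.21 at day 14. The median over all genes stayed between -0.03 and 0.06 on the same arrays. Of the 76 genes, 55 and 63 lay above 0 on the day 3 arrays and 58 and 66 on the day 14 arrays, against 30 and 17 on the controls and 11 and 8 at day 7. Thus the arrays of day 3 and day 14 were high and those of day 7 low, and 1 of the controls lay close to the day 7 arrays.

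**Figure D1:**
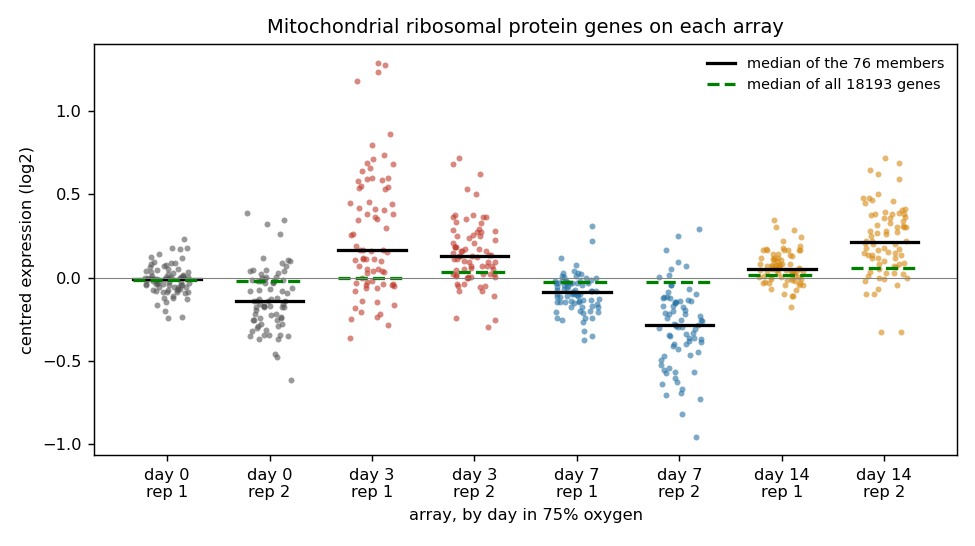
Centred expression (log2) of the 76 mitochondrial ribosomal protein genes on each of the 8 arrays (1 point per gene), with their median (solid line) and the median of all 18193 genes (dashed line). The member median is highest on d14r2 (0.21) and lowest on d7r2 (-0.28), and the points spread most on d3r1.

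In 28 of the 76 (36.8%) all 4 arrays of day 3 and day 14 lay above all 4 arrays of day 0 and day 7, an order that 10.7% of all genes showed. The reverse order was seen in 0 of the 76 and in 5.58% of all genes. This order was noticed after the values were seen and carries no test. It held in 22 genes (6.67% of all genes) after a further quantile normalization and in 23 (6.74%) after subtraction of the median of each array. With fewer arrays to be ordered, the number of genes can only stay or rise. Without d0r1 the order held in 44 (15.6% of all genes), without both arrays that stood apart in 38 (17.8%), and without d3r2 and d14r1 in 45 (21.3%). *Mrps24*, *Mrpl13*, *Mrpl16*, *Mrpl39*, *Mrps16* and *Mrps28* were among the 28.

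Markers of other cells varied over the same arrays. The lens median was 2.28 on d0r2 and 2.49 and 3.67 on the day 7 arrays, where the ribosomal protein genes had medians of -0.14, -0.08 and -0.28, and it was -4.44 and -1.15 on the day 3 arrays and -1.10 on d14r2, where they had 0.16, 0.13 and 0.21. The other arrays did not follow this order, with a lens median of 1.10 beside a member median of 0.05 on d14r1 and of -3.03 beside -0.01 on d0r1. The 6 measured rod photoreceptor markers had medians of -0.45 and -0.30 at day 3 and -0.41 on d14r2, and 0.01 to 0.10 on the other 5 arrays. The 5 markers of Müller glia and astrocytes had -0.23 and -0.21 at day 3 and -0.24 on d14r2, 0.17 and 0.17 at day 7, and -0.03 to 0.03 on the others. The 3 measured bipolar cell markers stood at -0.83 on d3r2 and -0.95 on d14r2, against -0.16 to 0.51 elsewhere, and the 5 cone markers at -0.58 and -0.34, against -0.12 to 0.18. The part of lens tissue, of retinal cell types and of the 2 arrays that stood apart in these differences was not tested. In RNA of a whole retina, fewer cells of a type and less RNA per cell cannot be told apart.

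The start sites of the genes are shown because so many of these genes varied together. Promoter windows of 300 bases (250 before to 50 after the start of the gene) were taken from RefSeq (GRCm38.p6) for 67 of the 76 genes, which gave 73 windows on 16 chromosomes. Both strands were searched for letters bound by factors known to act on nuclear genes of mitochondria. Capitals mark CCGGAAG or its reverse CTTCCGG (ETS family, which includes GABP), GCGCATGC or GCATGCGC (NRF1, a pair that can overlap) and AAGATGGC or GCCATCTT (YY1). The first windows belong to *Mrps24*, the gene most like the mean of the others, and to *Mrps16*, *Mrpl46* and *Mrpl58*, which are among the genes with the smallest p below. The windows of *Mrps31*, *Mrpl23*, *Mrps6* and *Mrpl44*, which also had the smallest p above control at day 3 or day 14, and that of *Mrps2*, which lay below control at day 3, hold none of these letters and are not printed.

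Mrps24 (chr11:5707652-5707951, minus strand): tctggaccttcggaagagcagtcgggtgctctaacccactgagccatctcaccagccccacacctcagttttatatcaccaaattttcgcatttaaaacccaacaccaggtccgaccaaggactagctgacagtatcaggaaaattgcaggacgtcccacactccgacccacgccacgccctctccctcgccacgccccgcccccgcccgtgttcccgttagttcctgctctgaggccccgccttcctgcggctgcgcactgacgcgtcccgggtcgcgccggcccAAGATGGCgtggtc

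Mrps16 (chr14:20393441-20393740, minus strand): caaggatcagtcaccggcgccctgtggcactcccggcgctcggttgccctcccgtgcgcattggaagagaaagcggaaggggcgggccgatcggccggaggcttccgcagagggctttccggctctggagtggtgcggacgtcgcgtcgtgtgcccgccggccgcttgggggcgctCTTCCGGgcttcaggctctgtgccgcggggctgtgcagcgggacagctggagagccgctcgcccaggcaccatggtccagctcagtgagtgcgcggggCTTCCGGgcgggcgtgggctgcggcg

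Mrpl46 (chr7:78783040-78783339, minus strand): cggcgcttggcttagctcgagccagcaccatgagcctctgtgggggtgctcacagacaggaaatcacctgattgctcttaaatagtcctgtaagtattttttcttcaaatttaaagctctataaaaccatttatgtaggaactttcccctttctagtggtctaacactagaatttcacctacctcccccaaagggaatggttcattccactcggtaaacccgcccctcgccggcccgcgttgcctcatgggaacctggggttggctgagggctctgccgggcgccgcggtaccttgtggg

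Mrpl58 (chr11:115403502-115403801, plus strand): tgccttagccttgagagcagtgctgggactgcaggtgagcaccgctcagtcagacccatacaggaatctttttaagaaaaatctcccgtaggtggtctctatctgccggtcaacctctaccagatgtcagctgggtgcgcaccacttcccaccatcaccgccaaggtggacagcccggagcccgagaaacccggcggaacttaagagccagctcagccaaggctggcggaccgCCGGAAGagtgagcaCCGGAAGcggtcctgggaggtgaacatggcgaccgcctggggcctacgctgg

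The next windows belong to *Mrps18b* and *Mrps18c*, a pair of paralogues that were high on different arrays, and to *Mrpl27*, the gene least like the others.

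Mrps18b (chr17:35916391-35916690, minus strand): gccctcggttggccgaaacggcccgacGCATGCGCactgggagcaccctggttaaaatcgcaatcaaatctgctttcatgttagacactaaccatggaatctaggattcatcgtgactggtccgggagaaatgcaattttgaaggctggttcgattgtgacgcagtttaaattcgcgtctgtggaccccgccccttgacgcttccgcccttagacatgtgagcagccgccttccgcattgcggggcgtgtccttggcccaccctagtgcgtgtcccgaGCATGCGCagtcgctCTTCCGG

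Mrps18c (chr5:100798509-100798808, plus strand): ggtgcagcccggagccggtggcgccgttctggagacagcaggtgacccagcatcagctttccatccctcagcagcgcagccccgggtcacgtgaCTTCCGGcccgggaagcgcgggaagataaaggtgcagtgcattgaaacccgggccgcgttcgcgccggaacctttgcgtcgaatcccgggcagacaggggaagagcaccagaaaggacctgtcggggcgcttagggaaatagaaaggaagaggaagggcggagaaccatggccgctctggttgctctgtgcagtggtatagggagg

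Mrpl27 (chr11:94653541-94653840, plus strand): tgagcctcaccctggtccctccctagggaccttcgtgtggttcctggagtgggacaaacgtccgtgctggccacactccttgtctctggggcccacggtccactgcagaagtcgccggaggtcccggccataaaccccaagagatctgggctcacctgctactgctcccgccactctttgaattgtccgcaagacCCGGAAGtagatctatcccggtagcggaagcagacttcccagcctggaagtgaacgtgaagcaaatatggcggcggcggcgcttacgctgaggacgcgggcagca

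The windows of *Mrps16* and *Mrpl58* shown each hold the ETS letters at 2 places (a second window of *Mrps16*, from a start further upstream, holds none), that of *Mrps18b* holds both NRF1 and ETS letters, and that of *Mrps24* holds the YY1 letters just before its end. None of the letters lie in the window of *Mrpl46*. The window of *Mrpl27* holds the ETS letters as well, and the letters were thus present or absent both in genes that followed the common course and in those that did not. Over the 73 windows the ETS letters were found in 25 (34.2%, against 13% of the 18109 windows of genes tested and 8.86% of all 32851 windows), the YY1 letters in 12 (16.4%, against 3.38% and 2.75%) and the NRF1 letters in 8 (11%, against 4.04% and 2.71%). At least 1 of these was present in 37 windows (50.7%, against 18.8% and 13.3%). Letters of general promoter elements were closer to the other genes. CCAAT was found in 39.7% (37.4% of genes tested), the GC box GGGCGG in 53.4% (52.3%), the E box CACGTG in 9.59% (8.72%) and TATAAA in 6.85% (9.77%). The median GC content was 58.7% and 58.3% in genes tested, and the median number of CG dinucleotides 21 and 16. A match is a description of letters and not a binding site.

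**Figure D2:**
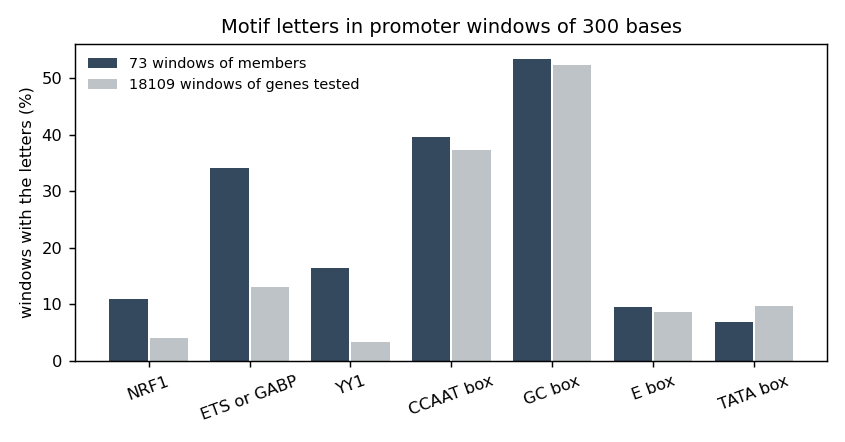
Percent of promoter windows of 300 bases that hold the letters of each motif on either strand, in the 73 windows of mitochondrial ribosomal protein genes (dark) and the 18109 windows of genes tested (light). The bars differ most for ETS or GABP (34.2% and 13%), YY1 (16.4% and 3.38%) and NRF1 (11% and 4.04%), and least for the E box (9.59% and 8.72%).

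Many of these genes start back to back with a neighbour. Of the 67 with a start site, 25 (37.3%) had a gene starting on the other strand within 1000 bases, against 16.3% of 14452 genes tested. Neighbours with a mitochondrial role included Ptcd2 (an RNA-binding protein) beside *Mrps27*, Sars2 (seryl-tRNA synthetase) beside *Mrps12*, Twnk (the DNA helicase) beside *Mrpl43* and Ndufb5 (complex I) beside *Mrpl47*. *Mrpl46* and *Mrps11* start back to back with 42 bases between their starts, and their gene means had unlike courses. *Mrpl46* had 0.55 and 0.36 at day 3 against -0.05 and -0.35 in controls, whereas *Mrps11* had 0.36 and -0.11 against 0.13 and 0.32. The probe sets of *Mrps11* disagreed at day 3, with differences from control of 0.29, the direction of *Mrpl46*, and -0.49.

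At day 3 the genes of the mitochondrial ribosome stood mostly above control, by a median of 0.25 on the log2 scale, and 67 of 76 had a higher mean (59.2% of all genes, whose median was 0.06). Both arrays lay above both controls in 40 (28.2% of all genes) and below both in 3 (16.1%). No single gene passed the threshold: 0 of 76, and 0.0% of all genes, had an adjusted p under 0.05 (limma, Benjamini-Hochberg; lowest adjusted p = 0.427). At an unadjusted p under 0.05, 17 were higher (6.38% of all genes) and 0 lower (4.61%). Leaving out d0r2 or d3r1 lowered that count, and it rose without d3r2 and d14r1. These fits leave a single array for a time, and the share of all genes was not counted in them. The methods' one-way analysis of variance gave 6, and there too the share of all genes was not counted. Without d3r2, 1 gene passed, *Mrps33*, which codes for a protein of the small subunit found in mitochondria alone (1.26 ± 0.17, SE; adjusted p = 0.0474 with limma, where 100 genes in all passed). Its arrays at day 3 stood at 1.18 and -0.0017, so the left-out array lay near 0.

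Among the genes with the smallest p at day 3, *Mrps31*, a protein of the small subunit head found in mitochondria alone, had -0.11 and -0.25 on the control arrays, 0.41 and 0.28 at day 3, -0.24 and -0.28 at day 7, then 0.03 and 0.05 at day 14. Its day 3 arrays were the highest of the 8 and did not overlap with control. The difference at day 3 was 0.53 ± 0.12 (SE, n = 2 arrays each; limma, adjusted p = 0.427). *Mrpl46*, which lies in the central protuberance of the large subunit, had -0.05 and -0.35 in controls, 0.55 and 0.36 at day 3, -0.24 and -0.57 at day 7, then 0.05 and 0.28 at day 14, again with the day 3 arrays on top. It differed from control by 0.66 ± 0.18 at day 3. *Mrpl23*, at the exit of the tunnel through which new chains leave, had -0.20 and -0.22 in controls, 0.44 and 0.29 at day 3, -0.08 and -0.35 at day 7, then 0.08 and 0.36 at day 14. All 4 arrays of day 3 and day 14 lay above the controls, by 0.57 ± 0.16 in the means of day 3. *Mrps16*, the counterpart of bacterial S16, had -0.07 and -0.24 in controls, 0.55 and 0.26 at day 3, -0.14 and -0.43 at day 7, then 0.07 and 0.33 at day 14. Its controls and day 7 arrays lay below the rest, and the difference at day 3 was 0.56 ± 0.17. The adjusted p from limma was 0.427 for each of these 4 genes.

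The genes below control at day 3 were few and their differences small. *Mrps2*, the counterpart of bacterial S2, had 0.0041 and 0.09 in controls, -0.20 and -0.30 at day 3, -0.05 and 0.17 at day 7, then 0.35 and -0.10 at day 14. In the gene mean both day 3 arrays were lower than the other 6, and the difference was -0.30 ± 0.17 (adjusted p = 0.531). The probe sets of *Mrps2* disagreed on each of these arrays. On d3r1 and d3r2 a probe set had 0.03 and -0.84 (difference -0.54), and the other had -0.44 and 0.24 (difference -0.05). *Mrpl27*, which lies close to the site of peptide bond formation, had -0.09 and 0.39 in controls and -0.16 and 0.05 at day 3 (-0.21 ± 0.18; adjusted p = 0.655). The controls themselves differed by more than the groups did, and without d0r2 the difference was 0.03. For *Mrpl38*, in the central protuberance, the difference was -0.09 ± 0.12 (adjusted p = 0.754), with all 8 arrays between -0.08 and 0.07. *Mrpl19* differed by -0.10 ± 0.16 (adjusted p = 0.803), and by 0.10 without d0r2, whose value of 0.35 was the highest of the 8.

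**Figure D3:**
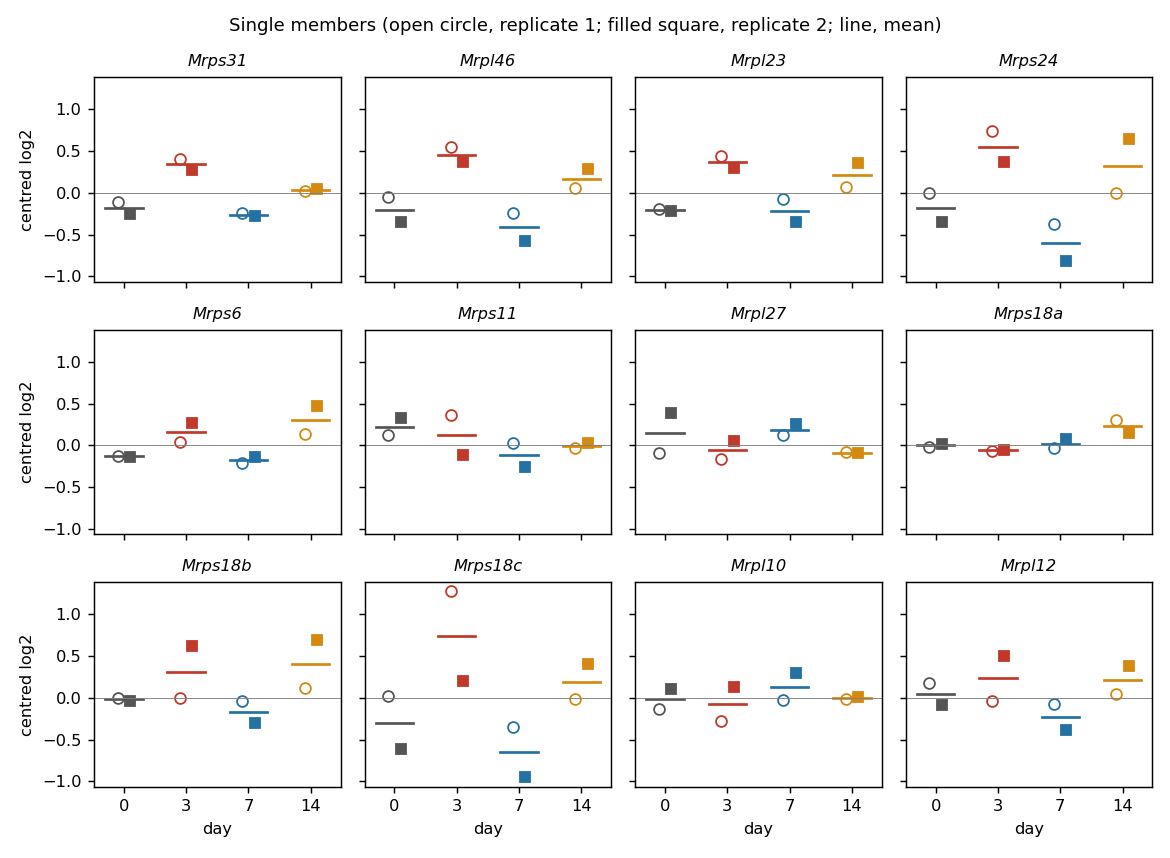
Centred expression (log2) of 12 single genes by day in oxygen, with 1 point per array (open circle, replicate 1; filled square, replicate 2) and a line at the mean of each time. The day 3 arrays of *Mrps31*, *Mrpl46* and *Mrpl23* lie above their controls, *Mrps18c* spreads from -0.95 to 1.28, and *Mrpl27* and *Mrpl10* do not follow the other genes.

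At day 7 the direction was the opposite. The mean was below control in 68 of 76 genes (51.9% of all genes), with a median difference of -0.10 against -0.01 for all genes. Both arrays lay below both controls in 13 (13.1% of all genes) and above both in 0 (12.1%), so the share with both arrays below was near that of all genes. The adjusted p was 0.9998 for every gene of the set, 0 passed (0.0% of all genes), and 0 had an unadjusted p under 0.05 in either direction (limma; 0.341% of all genes higher and 0.456% lower). The methods' analysis of variance also gave 0, where the share of all genes was not counted. The size of the shift depended on single arrays. Leaving out d7r1 gave a median of -0.21 and leaving out d7r2 one of -0.02, and without the controls d0r1 or d0r2 it was -0.05 or -0.18.

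Of the genes lower at day 7, *Mrps24*, the counterpart of bacterial S3 at the entry of the messenger RNA channel, had -0.00067 and -0.35 in controls, 0.74 and 0.37 at day 3, -0.38 and -0.82 at day 7, then 0.00067 and 0.65 at day 14. Its day 7 arrays were the lowest of the 8 and its day 3 arrays among the highest 3, and the difference from control at day 7 was -0.42 ± 0.27. *Mrpl45*, which helps to hold the ribosome at the inner membrane, had 0.18 and -0.07 in controls and -0.08 and -0.49 at day 7, and differed by -0.34 ± 0.21. Its lower control and its higher day 7 array were nearly level. *Mrps11*, on the platform of the small subunit, had 0.13 and 0.32 in controls and 0.03 and -0.26 at day 7 (-0.34 ± 0.19). *Mrpl11*, at the base of the stalk that recruits translation factors, had 0.08 and -0.17 in controls and -0.18 and -0.57 at day 7 (-0.32 ± 0.18), and here too a control and a day 7 array were nearly level.

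The genes higher at day 7 overlapped with control in all cases named. *Mrpl10* differed by 0.15 ± 0.19, but by -0.0085 without d7r2. *Mrps9*, the counterpart of bacterial S9, had 0.31 and -0.20 on its day 7 arrays and differed by 0.08 ± 0.20, or by -0.17 without the first of them. *Mrpl57*, found in mitochondria alone, differed by 0.09 ± 0.12, and by -0.02 without d0r1. For *Mrpl51*, also found in mitochondria alone, the difference was 0.03 ± 0.12, and the probe set with the largest spread gave -0.24. The adjusted p from limma was 0.9998 for each of the 8 genes named at day 7.

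At day 14 the genes stood above control again, by a median of 0.22 (0.08 for all genes), with 69 of 76 higher (64.0% of all genes). Both arrays lay above both controls in 42 (33.5%) and below both in 1 (15.2%), which was *Mrps11*. At an unadjusted p under 0.05, 2 were higher (limma; 4.45% of all genes) and 0 lower (3.56%), which is below the share of all genes. None passed after adjustment (0 of 76, 0.0% of all genes; lowest adjusted p = 0.615). The count at an unadjusted p depended on single arrays. It rose without d14r1 and without d3r2 and d14r1, and fell without d14r2 or d0r2. These fits leave a single array for a time, and the share of all genes was not counted in them. The methods' analysis of variance gave 4, and there too the share of all genes was not counted. The comparisons of days 3, 7 and 14 share the control arrays.

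*Mrps6*, the counterpart of bacterial S6, had -0.12 and -0.14 in controls, 0.04 and 0.27 at day 3, -0.21 and -0.14 at day 7, then 0.14 and 0.48 at day 14, so that the day 0 and day 7 arrays were close to each other and below the rest. It differed from control by 0.44 ± 0.16 at day 14 (limma, adjusted p = 0.615). *Mrpl23* was above control at this time as well, by 0.42 ± 0.16 (adjusted p = 0.615). *Mrpl58*, which frees stalled ribosomes by cutting the chain from its tRNA, had -0.09 and -0.14 in controls, 0.16 and 0.14 at day 3, -0.20 and -0.14 at day 7, then 0.12 and 0.18 at day 14. Its 2 arrays of each time lay close to each other, and the difference at day 14 was 0.26 ± 0.11 (adjusted p = 0.627). For *Mrpl44*, which has the fold of an RNase III, the controls were -0.0024 and -0.29 and the day 14 arrays 0.22 and 0.13 (0.32 ± 0.14; adjusted p = 0.627). This depended on the probe set, since the one with the largest spread gave -0.23.

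Of the 7 genes below control at day 14, *Mrps11* had -0.03 and 0.03 on its day 14 arrays and differed by -0.23 ± 0.19 (adjusted p = 0.718). *Mrpl27* differed by -0.24 ± 0.18 (adjusted p = 0.699) and *Mrpl19* by -0.15 ± 0.16 (adjusted p = 0.769), and both overlapped with control through d0r1. Without d0r2 their differences were 0.0025 and 0.06. *Mrps7*, the counterpart of bacterial S7 in the head of the small subunit, differed by -0.03 ± 0.14 (adjusted p = 0.944).

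**Figure D4:**
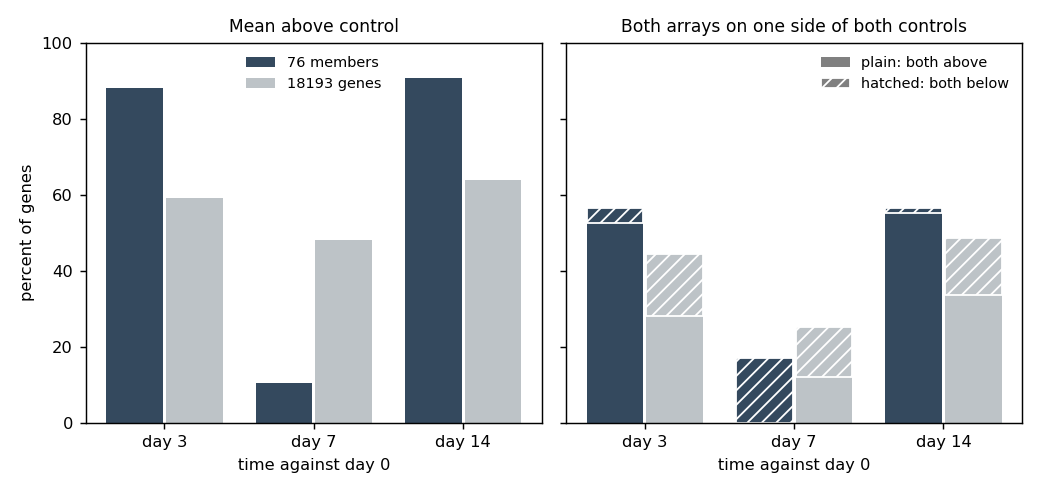
Left, percent of genes with a mean above control at each time, for the 76 mitochondrial ribosomal protein genes (dark) and all 18193 genes (light). Right, percent with both arrays above (plain) or below (hatched) both control arrays; 40, 0 and 42 of the 76 lay above at days 3, 7 and 14, and 3, 13 and 1 lay below.

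The later times were also compared with the earlier ones. From day 3 to day 7 the median difference was -0.41 (-0.06 for all genes), 52 of 76 had both day 7 arrays below both day 3 arrays (28.0% of all genes), and 30 were lower at an unadjusted p under 0.05 (8.76%), with 0 past adjustment (0.0%; limma, lowest adjusted p = 0.285). Leaving out d7r2 or d3r1 lowered the 30, most of all without d7r2. Without d3r2, 8 passed among 521 genes in all: *Mrpl14*, *Mrpl32*, *Mrpl35*, *Mrpl42*, *Mrpl50*, *Mrpl55*, *Mrps18c* and *Mrps33*, with differences from -1.93 (Mrps18c) to -0.89 (Mrpl14). In that fit the only array left for day 3 is assumed to vary like those of the other times. Without d14r1 as well, 0 passed (lowest adjusted p = 0.0605). From day 7 to day 14 the median was 0.34 (0.08), 73 of 76 were higher (64.3% of all genes), 55 had both arrays above (34.5%) and 22 were higher at an unadjusted p under 0.05 (6.83%; lowest adjusted p = 0.410, 0 past). This count depended on single arrays and fell when d14r2 or d7r2 was left out, in fits that leave a single array for a time. Between day 3 and day 14 the genes stood at like values, with a median of -0.05, 26 of 76 higher (53.4% of all genes), and 6 with both arrays above (14.4%) and 5 with both below (11.7%); the lowest adjusted p was 0.983. Without d3r2 and d14r1, which leaves a single array at each of these times, 39 were higher.

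Genes named Mrpl and Mrps took the same course. At day 3, 42 of 47 Mrpl genes (median 0.24) and 25 of 29 Mrps genes (median 0.25) were higher than control. At day 7, 4 of 47 and 4 of 29 were higher, with medians of -0.10 and -0.11, and at day 14 42 of 47 (0.19) and 27 of 29 (0.23). Genes with a bacterial counterpart (43) and those found in mitochondria alone (31) were also alike, with 36 of 43 (0.21) and 29 of 31 (0.26) higher at day 3, 4 of 43 (-0.11) and 4 of 31 (-0.08) at day 7, and 39 of 43 (0.16) and 28 of 31 (0.24) at day 14. *Mrpl55* and *Mrps28* were assigned to neither class. *Mrps18a* and *Mrps18b* were counted as found in mitochondria alone, although their paralogue *Mrps18c* was counted among genes with a bacterial counterpart. No difference between the classes was tested.

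The genes shared their course to different degrees. Over the 8 arrays the mean Pearson r between pairs of these genes was 0.42 (0.03 between pairs of all genes). This is a description, since all pairs share the same 8 arrays. The r of a gene with the mean of the other 75 had a median of 0.81. It was 0.8 or more in 40 genes and 0.5 or more in 60, with *Mrps24* (0.99), *Mrpl16*, *Mrpl39*, *Mrps16* and *Mrps28* at the top. It was below 0 in 8 genes, of which *Mrpl27* (-0.79), *Mrpl10* (-0.67) and *Mrps2* (-0.57) were the lowest, followed by *Mrpl38*, *Mrpl9*, *Mrpl19*, *Mrps7* and *Mrps18a*. Arrays of the same time did not give these genes the same order. Over the 76 genes r was -0.13 between the controls, -0.24 at day 3, 0.42 at day 7 and -0.20 at day 14, whereas it was 0.75 between arrays d3r2 and d14r2 (0.69 over all genes) and 0.74 between d0r2 and d7r2 (0.48).

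**Figure D5:**
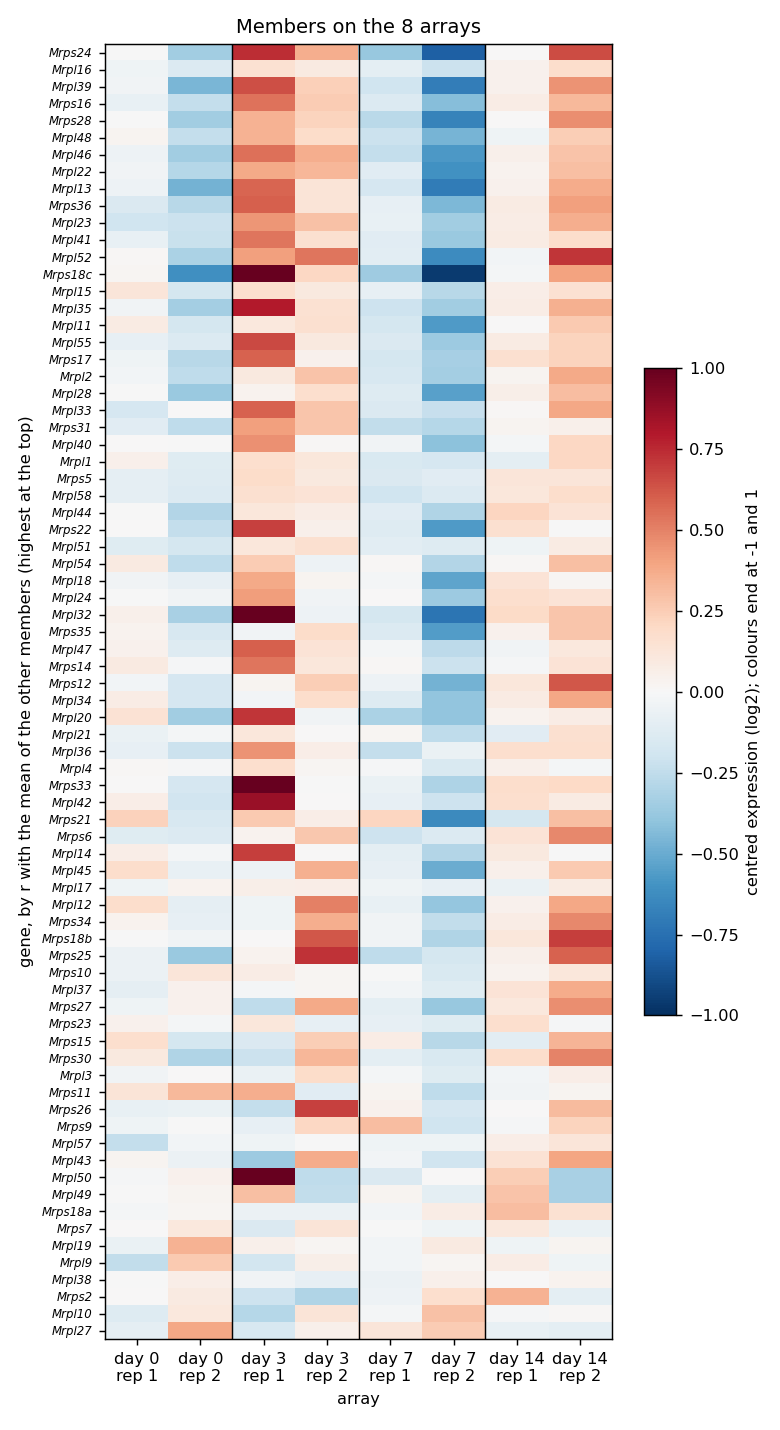
Centred expression (log2, colour; scale ends at -1 and 1) of the 76 genes on the 8 arrays, with genes ordered by their r with the mean of the other members (Mrps24 at the top, 0.99; *Mrpl27* at the bottom, -0.79). Columns of the 2 arrays of day 3 differ in which genes are high, and d7r2 is low in most rows.

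The arrays of day 3 reached their high values through different genes. On d3r1, 21 genes stood at 0.5 or above, led by *Mrpl32* (1.29), *Mrps18c* (1.28), *Mrpl50* (1.24) and *Mrps33* (1.18). On d3r2 there were 5, led by *Mrps25* (0.72), *Mrps26* (0.68) and *Mrps18b* (0.62), and on d14r2 also 5, led by *Mrpl52* (0.72) and *Mrps18b* (0.69). The other 5 arrays had 0 such genes. At -0.5 or below stood 15 genes on d7r2 and 1 on d0r2. The spread over all genes differed between the arrays as well. It was widest on d3r1 (SD 0.37), then on d7r2 (0.33), d14r2 (0.32) and d3r2 (0.28), against 0.16 to 0.21 on the others. The share of all genes beyond 0.5 or -0.5 was not counted.

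*Mrps18c* and *Mrpl32* spread most over the 8 arrays. *Mrps18c*, a protein of the small subunit, had 0.02 and -0.62 in controls, 1.28 and 0.21 at day 3, -0.35 and -0.95 at day 7, then -0.02 and 0.40 at day 14 (SD over the arrays 0.68). It was the 1 gene of the set whose mean at day 3 was 2-fold or more above control (0.451% of all genes), though its day 3 arrays differed from each other by about as much. *Mrpl32*, which a protease of the inner membrane must cut before it joins the large subunit, had 0.05 and -0.32 in controls, 1.29 and -0.05 at day 3, -0.18 and -0.73 at day 7, then 0.19 and 0.28 at day 14. A single array made up its high mean at day 3. *Mrps24* came next (SD 0.54). *Mrpl38*, *Mrpl17* and *Mrpl4* had the smallest spread: *Mrpl17* lay between -0.09 and 0.09 and *Mrpl4*, which reaches into the exit tunnel, between -0.15 and 0.16 on all 8 arrays. The median SD of the set was 0.25 (0.19 for all genes).

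The MRPS18 paralogues were high on different arrays. In mitochondrial ribosomes *Mrps18a* lies in the large subunit and *Mrps18b* and *Mrps18c* in the small one. *Mrps18a* had -0.02 and 0.02 in controls, -0.06 and -0.06 at day 3, -0.03 and 0.07 at day 7, then 0.31 and 0.15 at day 14, so that only its day 14 arrays stood out. *Mrps18b* had -0.00077 and -0.03 in controls, 0.00077 and 0.62 at day 3, -0.03 and -0.30 at day 7, then 0.12 and 0.69 at day 14. Its high values were on arrays d3r2 and d14r2, those that stood apart, whereas *Mrps18c* was highest on d3r1. The stalk proteins *Mrpl10* and *Mrpl12*, partners in the ribosome, differed as well. *Mrpl10* had -0.13 and 0.10 in controls, -0.28 and 0.13 at day 3, -0.02 and 0.29 at day 7, then -0.01 and 0.01 at day 14. *Mrpl12* had 0.18 and -0.09 in controls, -0.04 and 0.50 at day 3, -0.07 and -0.39 at day 7, then 0.04 and 0.38 at day 14, and was again highest on the arrays that stood apart. At no time in oxygen did both arrays of either gene lie on one side of both controls.

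Separate probe sets of a gene did not always agree in direction. Of the 42 genes with 2 or more probe sets, all probe sets were above control in 17 at day 3, 0 at day 7 and 15 at day 14, and all below in 3, 14 and 2. The signs differed within 22, 28 and 25 genes. *Mrpl9*, *Mrpl11*, *Mrpl19*, *Mrpl44*, *Mrpl51*, *Mrps2* and *Mrps11* were among those with disagreeing probe sets. Counted singly, 119, 37 and 121 of the 156 probe sets were higher than control at days 3, 7 and 14.

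Other parts of mitochondrial gene expression were followed for comparison. Subunits of the same ribosome that carry other names (Dap3, *Ptcd3*, *Chchd1* and *Gadd45gip1*) were higher than control in 4 of 4 at day 3, 0 of 4 at day 7 and 3 of 4 at day 14 (59.2%, 48.1% and 64.0% of all genes). At day 3, however, Dap3 and *Ptcd3* were level with control, with differences of 0.0034 and 0.0069. The day 3 arrays of Dap3 stood at -0.38 and 0.26. *Chchd1* had 0.02 and -0.40 in controls, 1.32 and 0.41 at day 3, -0.25 and -0.89 at day 7, then -0.02 and 0.37 at day 14, much like *Mrps18c*, and differed by 1.05 ± 0.35 at day 3 (limma, adjusted p = 0.427). For *Gadd45gip1* the difference was 0.30 ± 0.17 (adjusted p = 0.531). Of 24 assembly factors, 15, 7 and 17 (62.5%, 29.2% and 70.8%) were higher at days 3, 7 and 14. At days 3 and 14 these shares were close to those of all genes. Their median differences, however, were 0.20, -0.09 and 0.24, close to the 0.25, -0.10 and 0.22 of the 76 genes. Over all genes the medians were 0.06, -0.01 and 0.08. *Mrm2*, which methylates the ribosomal RNA of the large subunit, differed by 0.79 ± 0.19 at day 3, and *Malsu1*, which acts late in assembly of that subunit, by 0.54 ± 0.16 (adjusted p = 0.427 for both).

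Of 12 translation factors 7, 5 and 7 were higher at days 3, 7 and 14, shares of 58.3%, 41.7% and 58.3% that are near those of all genes. Their median differences were 0.03, -0.02 and 0.21, against 0.06, -0.01 and 0.08 over all genes. The initiation factor *Mtif2* had -0.11 and 0.30 in controls and -0.81 and -0.66 at day 14 (-0.83 ± 0.20; limma, adjusted p = 0.595), the opposite direction to most ribosomal protein genes. The release factor *Mtrf1l* differed by 0.72 ± 0.24 at day 3 (adjusted p = 0.427). Of 19 genes of tRNA charging 11, 5 and 14 were higher, with medians of 0.06, -0.07 and 0.13. *Gatc*, a subunit of the enzyme that makes glutaminyl-tRNA, had 0.31 and 0.26 in controls and -0.14 and -0.52 at day 14 (-0.61 ± 0.17; adjusted p = 0.595), and *Fars2*, which charges phenylalanine tRNA, differed by 0.72 ± 0.21 at day 14 (adjusted p = 0.613).

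Of 5 genes of mitochondrial transcription, 4, 1 and 3 were higher at the 3 times, with medians of 0.20, -0.05 and 0.11. The polymerase *Polrmt* differed by 0.28 ± 0.15 at day 14 (limma, adjusted p = 0.630) and its activator *Tfam* by 0.31 ± 0.17 at day 3 (adjusted p = 0.516). Of 9 regulators of mitochondrial biogenesis, 1, 4 and 4 were higher, with medians of -0.28, -0.04 and -0.16. The coactivator *Ppargc1a* had 0.30 and 0.13 in controls and -0.14 and -0.55 at day 14 (-0.56 ± 0.18; adjusted p = 0.614), while *Myc*, a transcription factor that also acts on ribosome genes, was the 1 that was higher at day 3 (0.49 ± 0.17; adjusted p = 0.427). The factors whose letters were searched are in this list. At day 3 *Nrf1* differed by -0.49 ± 0.19, *Gabpb1* by -0.58 ± 0.27, *Yy1* by -0.28 ± 0.24 and *Gabpa* by -0.02 ± 0.19. At day 14 their differences were -0.28, -0.43, 0.09 and -0.19. Whether they act on the ribosomal protein genes here was not tested. In none of these lists did a gene pass the adjusted threshold at any time against control. At an unadjusted p under 0.05, the 6 lists together held 7 higher and 2 lower genes of 73 at day 3, 0 at day 7, and 4 higher and 3 lower at day 14. Among all genes 6.38% were higher and 4.61% lower at day 3, and 4.45% and 3.56% at day 14.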

How the data were processed

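The authors deposited RMA values on the log2 scale, for which the arrays are corrected for background, brought to one distribution and summarised per probe set (version not given in the sources used here). These are not the MAS5 values of the methods. Every probe set has a median of 0 over the 8 arrays to within 1e-06, a step the sources used here do not describe, so no level was available and weak probe sets could not be removed. The file holds 45101 probe sets. Without its 64 controls, the 34945 with 1 gene symbol were averaged to 18193 genes (932 probe sets had several symbols and 9160 none). Of the member probe sets 23 may match several transcripts (_s_at or _x_at), and 4 with a second symbol were left out.

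Group means of the 4 times, with 6 differences between them, were fitted to all 8 arrays by lmFit and eBayes of limma (version 3.58.1, R version 4.3.3; 4 residual and 3.12 prior degrees of freedom). The Benjamini-Hochberg adjustment ran over all genes, with 0.05 as the threshold. Promoter letters were counted in Python 3.11.15 with numpy 2.4.6 and pandas 2.3.3. The fit was tested on simulated data. The members and lists were chosen with earlier results of these data known. The genes named are, for each time against control, the 4 members of smallest p in each direction, the 3 with the largest and the 3 with the smallest SD, the MRPS18 paralogues, the stalk pair, and from each other list the 2 genes of smallest p. Other genes were named after their values were seen. Alternatives tried were a second quantile normalization, array medians set to 0, a replicate block, robust moderation, the compared arrays alone, each array left out, d3r2 and d14r2 left out, probe sets in place of genes, other choices of probe set and the methods' analysis of variance without its error model. The orders of 4 against 4 arrays and the fits without d3r2 and d14r1 were added after the data were seen. The quantitative PCR of the study was not analysed here.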

Additional observations from a re-analysis of the deposited data

Results flagged for a closer look

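Genes are listed here because every array of one time lay above both controls and every array of another time below both, or the reverse. The comparison of each such pair of times with limma passed in no case. *Mrps24* differed from control by 0.73 at day 3 and 0.50 at day 14 but by -0.42 at day 7 (adjusted p = 0.285 for day 7 against day 3 and 0.410 for day 14 against day 7, limma). *Mrps18b* differed by 0.33 at day 3, -0.15 at day 7 and 0.42 at day 14 (adjusted p = 0.435 and 0.452). *Mrpl11* differed by 0.18 at day 3 and -0.32 at day 7 (limma, adjusted p = 0.296). Its probe sets disagreed at day 3, with differences from control of 0.44, 0.47, 0.36 and -0.55. *Mrpl17*, whose values were all small, differed by 0.064 at day 3 and -0.063 at day 7 (limma, adjusted p = 0.646). *Mrpl1* differed by 0.18 and -0.12 (adjusted p = 0.386) and *Mrpl40* by 0.23 and -0.22 (adjusted p = 0.354) at the same times. *Mrpl55* differed by 0.49 at day 3, -0.14 at day 7 and 0.26 at day 14 (adjusted p = 0.285 for day 7 against day 3 and 0.466 for day 14 against day 7), and *Mrps27* by -0.24 at day 7 and 0.28 at day 14 (adjusted p = 0.447). *Mrps18a* differed by -0.060 at day 3 and 0.23 at day 14 (adjusted p = 0.983).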

How the results depend on the processing

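The median difference of the set from control kept its sign under all alternatives run. It lay between 0.20 and 0.31 at day 3, between -0.21 (without d7r1) and -0.024 (without d7r2) at day 7, and between 0.15 and 0.29 at day 14 when single arrays were left out. A further quantile normalization gave 0.17, -0.07 and 0.19, and subtraction of each array's median 0.21, -0.10 and 0.17, with 62, 11 and 60 of 76 genes higher. Without d3r2 and d14r2 together it was 0.25 at day 3 (58 of 76 higher) and 0.16 at day 14 (62 of 76). Without d3r2 and d14r1, left out after the data were seen, it was 0.25 (58 of 76) and 0.29 (65 of 76).

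The number of genes of the set past adjusted p (limma) was 0 in every comparison run under the alternatives, with the exception of the fit without d3r2 alone. Not every alternative was run for all 6 comparisons. Without d3r2 and d14r2 together only the comparisons with control were run, so day 7 against day 3 was not computed there. Leaving out single arrays gave 0 to 1 for day 3 against day 0 and 0 to 8 for day 7 against day 3. At an unadjusted p under 0.05, the methods' analysis of variance gave 6, 0 and 4 genes at days 3, 7 and 14 against 17, 0 and 2 with limma. The share of all genes was not counted in the analysis of variance. The order of 4 arrays above 4 held in 28 to 44 genes when an array was left out, the highest without d0r1, and in 45 without d3r2 and d14r1. Leaving out arrays can only keep or add genes, in the set and among all genes. These counts could therefore not fall and do not show how firm the order is. The cause of the order was not tested.

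The study lists its quality measures as a pair of experiments with 1 array of each time. Whether the replicate numbers of the labels mark these is not stated in the sources used here, and the correlation of same-numbered deviations between times ran from -0.30 to 0.46, so the block was kept as an alternative. With a replicate block 0 genes of the set passed, and 18, 0 and 3 had an unadjusted p under 0.05 at days 3, 7 and 14. The share of all genes was not counted in the fit with the block.

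Of 36 named differences, 10 turned their sign under at least 1 alternative, in 12 of 539 values. Left-out arrays gave -0.0085 to 0.31 for *Mrpl10* at day 7, -0.016 to 0.19 for *Mrpl57* and -0.17 to 0.33 for *Mrps9*. At day 14 they gave -0.36 to 0.057 for *Mrpl19*, -0.47 to 0.0025 for *Mrpl27* and -0.12 to 0.054 for *Mrps7*, which was also 0.054 without d3r2 and d14r2 and 0.017 without d0r2. At day 3 the ranges were -0.31 to 0.10 for *Mrpl19* and -0.44 to 0.033 for *Mrpl27*. The probe set with the largest spread gave -0.23 for *Mrpl44* at day 14 and -0.24 for *Mrpl51* at day 7. The causes were not tested. With 2 arrays a time and no level, differences of the size found here lie close to the spread between arrays, and probes below background cannot be told from the rest.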
